A study of Mus musculus with 8 samples.

Results

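Circular RNAs (circRNAs) are closed RNA loops made when the end of an exon is spliced back to an earlier exon of the same gene, called the host gene. The circRNAs described here come mostly from host genes that regulate small GTPases. Some Rab GTPases themselves, such as Rab11a, and Rab-binding proteins, such as Rab11fip3, are also among the hosts. The group was defined by the start of the gene symbol: Arhgef, Arhgap, Dock, Dennd, Psd, Rapgef, Tbc1d, Rab, Rabgap, Rasa, Rasgrp, Ralgap, Sipa1, Iqsec, Arfgef, Asap, Agap, Vav and Tiam, where Dock, Psd, Rab, Asap and Vav must be followed by a digit. In all, 209 of the 6315 circRNAs listed matched, from 71 of 2841 host genes. The 45 circRNAs of Arhgap10, Arhgap26, Arhgap32, Psd3, Dennd1b and Rab3ip match the same symbols and were left out by the definition of the group. The rule uses gene symbols and no measured value, but the members were chosen with earlier results of these data known.

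The libraries were made from total RNA of kidneys of C57BL/6L mice (strain spelled as labelled) aged 8 to 10 weeks. The control group held 3 libraries, titled wild type, while the design text of the series calls the controls sham-operated. The UUO group held 3 libraries from kidneys 5 days after unilateral ureteral obstruction, in which the ureter is closed and urine backs up into the kidney. The AC group held 2 libraries, also at day 5, of the model that the title names acute-chronic and the design text describes through ischaemia/reperfusion (I/R). No transgene or drug is labelled. Nothing in the labels ties a library to an animal of its own, so the spread behind the p-values could be technical.

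Small GTPases act as switches that are on with bound GTP and off with bound GDP. Exchange factors turn them on by releasing GDP, and GTPase-activating proteins (GAPs) turn them off by speeding up GTP hydrolysis. Rac and Cdc42 act on the actin skeleton, Rab and Arf switches direct vesicle traffic, and Ras, Rap and Ral switches carry growth, adhesion and secretion signals. In the kidney tubule these families serve the brush border, endocytosis and cell shape.

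Each library held between 40865 and 65145 circRNA counts, and 3 counts were worth 56.6 to 87.5 CPM (counts scaled to 1000000 counts of tested circRNAs, after library scaling). Sums per host gene, the marker levels below among them, were scaled to the counts of tested hosts instead. The group took 4.27 ± 0.236% of the counts in control (SD, n = 3), 4.06 ± 0.0519% in AC (SD, n = 2) and 4.04 ± 0.163% in UUO (SD, n = 3). Of 19 genes marking kidney tubule and glomerulus, 3 had a listed circRNA (Lrp2, Klhl3 and Wnk1), and their summed level was 2176 to 4240 CPM in control, 935 to 1387 CPM in AC and 615 to 1184 CPM in UUO. Of 6 injured tubule markers, Dcdc2a alone was listed, at 71.3 to 122 CPM in control, 2109 to 2225 CPM in AC and 2908 to 3169 CPM in UUO. Of 7 endothelial markers 2 were listed (Flt1 and Tek), summing to 89.1 to 122 CPM in control, 0 to 236 CPM in AC and 23.3 to 186 CPM in UUO. None of 15 immune, 9 fibroblast and 4 muscle or fat markers had a listed circRNA, so these cell types could not be followed. In RNA of whole kidney, fewer cells of a type and less RNA per cell cannot be told apart, and the linear transcripts of the hosts were not analysed here.

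The most abundant member was a circRNA of Rasa2, a Ras GAP, which held 24.5% of all counts of the group. The 8 most abundant held 59.9%. Among the roles described here, the Ras, Rap and Ral GAPs took 49.9% of the counts and the Tbc1d family of Rab GAPs 14.1%. Rab GTPases and Rab-named proteins, with Rabgap1 and Rabgap1l among them, took 9.15%. Arf GAPs took 6.41%, DENN domain Rab exchange factors 3.17%, Arf exchange factors 1.93% and Rap and Ras exchange factors 0.860%. A filter on low counts passed 49 of the 209 circRNAs, from 29 hosts, and these held 87.5% of the counts. It asked for about 10 counts at median depth in any 2 libraries. A sparse circRNA could therefore pass only through the groups where it was high, which favours a difference between groups. The 160 others had a median total of 8 counts over the 8 libraries and at most 65. When the counts of all circRNAs of a gene were summed, 36 of the 71 hosts passed the filter, 7 of them with no circRNA that passed alone.

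Between UUO and control, 1 of the 49 tested members passed the threshold, an adjusted p of 0.05 in edgeR's quasi-likelihood test with Benjamini-Hochberg adjustment over all 1471 tested circRNAs. It was a circRNA of Vav3 and it was higher. Over all tested circRNAs the share past this threshold was 4.35% (2.86% higher and 1.5% lower). Between AC and control the same Vav3 circRNA passed, again as higher and again as 1 of 49, against 3.33% of all tested circRNAs (1.9% higher and 1.43% lower). With so few members past the threshold, the shares lie near the background. The median log2 fold change of the 49 was 0.07 in UUO, with 27 positive, against 0.02 over all tested circRNAs, and -0.01 in AC, with 24 positive, against -0.02 over all.

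All libraries of the AC and UUO groups were compared with the same 3 control libraries, so the 2 comparisons are not independent of each other. In UUO, 10 of the 49 had values that did not overlap with control (5 higher, 5 lower), against 24.3% of all tested circRNAs (13.3% higher, 11% lower). In AC, 17 of 49 did not overlap (8 higher, 9 lower), against 30.7% (15.4% in each direction). At an unadjusted p under 0.05 there were 7 of 49 in UUO (15.5% of all) and 4 of 49 in AC (14.1% of all). When libraries were instead scaled by the constant that links the deposited tables, the median of all circRNAs shifted to -0.26 in UUO and -0.34 in AC. The calls over all circRNAs then turned from 42 higher and 22 lower to 11 higher and 26 lower in UUO, and from 28 and 21 to 7 and 22 in AC.

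**Figure D1:**
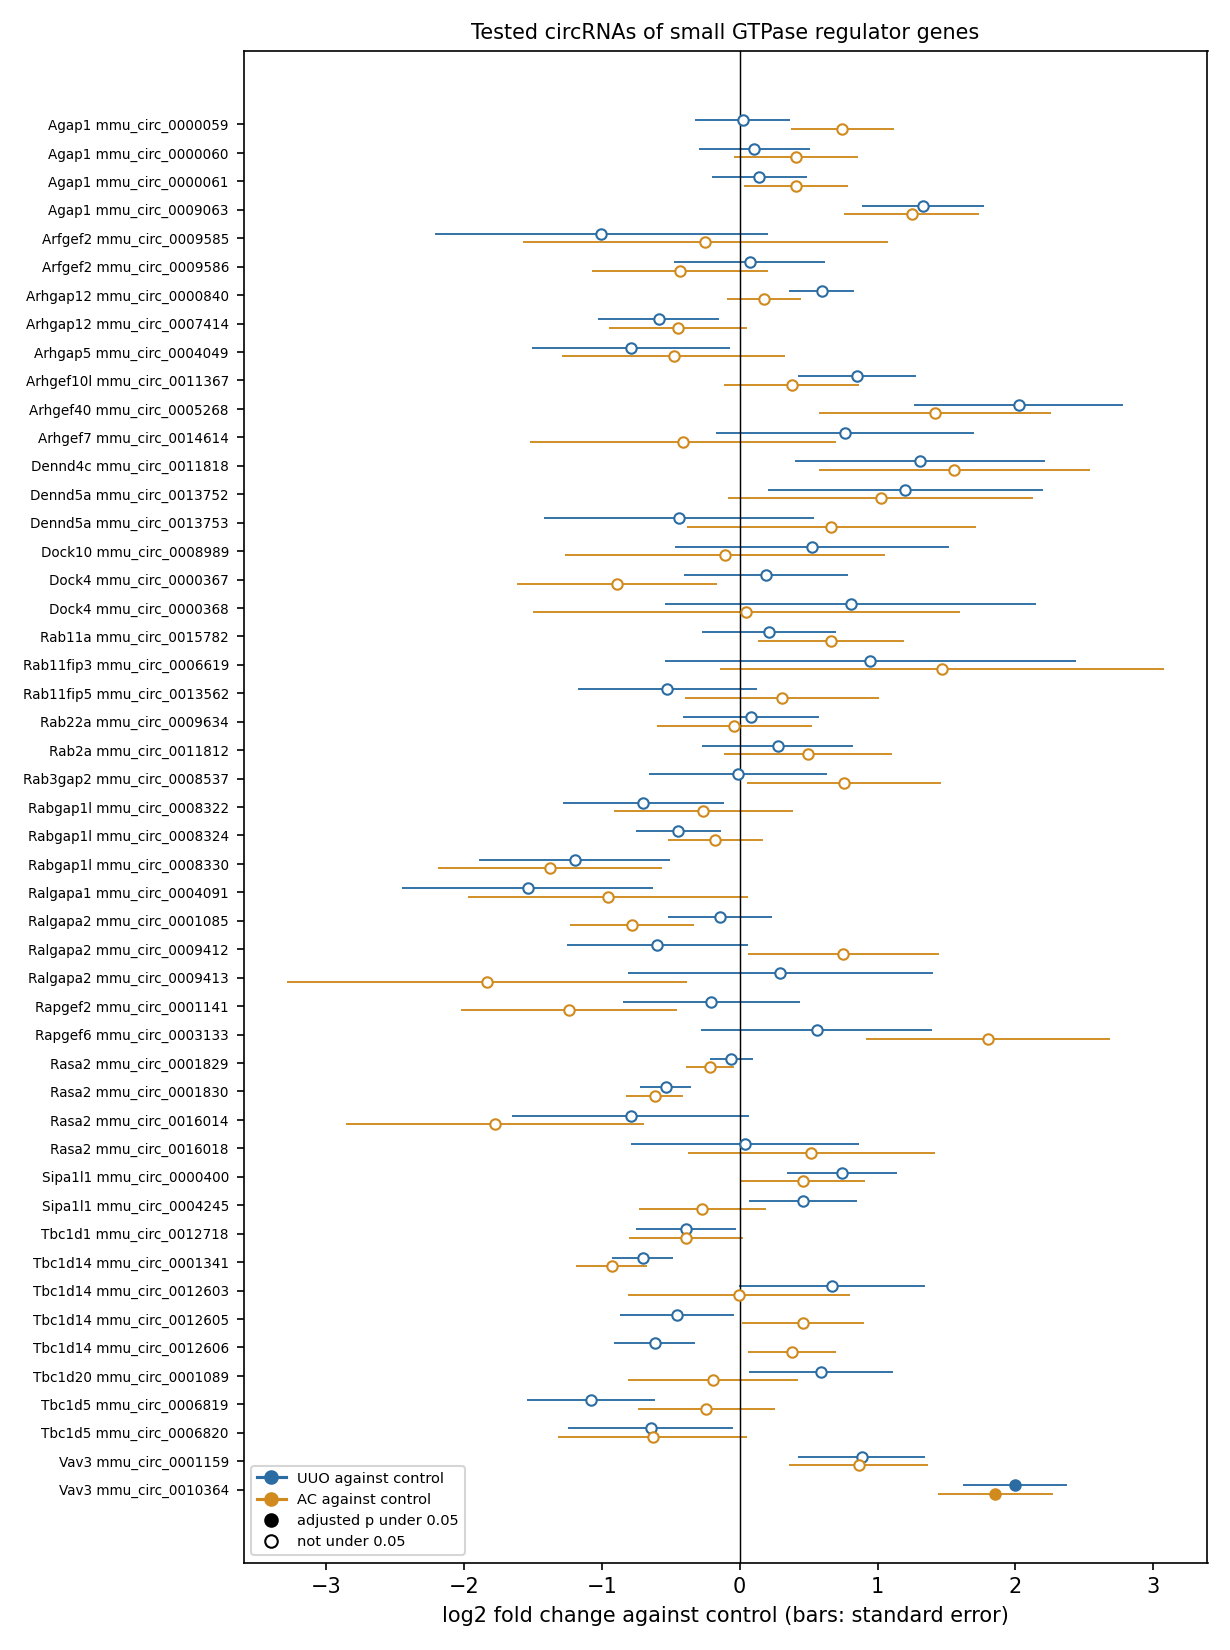
Log2 fold change against control (x axis, log2 units) for each of the 49 tested circRNAs, in order of gene symbol, with UUO in blue, AC in orange, bars for the standard error and filled points for an adjusted p under 0.05. The filled points are those of the Vav3 circRNA mmu_circ_0010364, at 1.996 in UUO and 1.86 in AC.

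Vav3 is an exchange factor that turns on Rac downstream of receptor and cytoplasmic tyrosine kinases. Its circRNA mmu_circ_0010364 had 6, 12 and 13 counts in control, 35 and 27 in AC, and 35, 32 and 49 in UUO. In CPM these were 159.5, 226 and 269 in control, 825 and 788 in AC, and 888, 747 and 1029 in UUO. Every AC and UUO library lay above every control library, and the AC values fell within the range of the UUO values.

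The mmu_circ_0010364 circRNA averaged 888 ± 141 CPM in UUO (SD, n = 3) against 218 ± 55.1 CPM in control (SD, n = 3). It was 3.99-fold higher, a log2 fold change of 1.996 (SE 0.38, edgeR adjusted p = 0.00858). In AC it averaged 806 ± 26.1 CPM (SD, n = 2) and was 3.62-fold higher (log2 fold change 1.86, SE 0.41, edgeR adjusted p = 0.0220). Among 8 refits that each dropped 1 library, the UUO call held in 7 and was lost without UUO replicate 3 (log2 fold change 1.85, edgeR adjusted p = 0.0556). The AC call held in 4 of 8 and was lost without control replicate 1 (edgeR adjusted p = 0.0532), control replicate 3 (0.0558), AC replicate 1 (0.134) or AC replicate 2 (0.0959), and also with the deposited constants as scaling (0.106) or with UUO left out of the fit (0.0795). In the markers given above, Dcdc2a was higher and the summed kidney list lower in every injured library than in every control library. The kidney sum separated through Klhl3, at 1856 to 2548 CPM in control against 326 to 628 CPM in the injured libraries, while Lrp2 and Wnk1 overlapped with control. The part of these markers in the Vav3 result and in the results that follow was not tested.

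Vav3 had 4 listed circRNAs. The other well-covered one, mmu_circ_0001159, had 11, 22 and 11 counts in control, 32 and 13 in AC, and 34, 21 and 19 in UUO. Its AC and UUO values overlapped with control, from 379 to 754 CPM in AC and 399 to 863 CPM in UUO against 227 to 415 CPM in control. Its log2 fold change was 0.88 with an SE of 0.46 in UUO (edgeR adjusted p = 0.384) and 0.86 with an SE of 0.51 in AC (edgeR adjusted p = 0.505). The other 2 were too sparse to test: mmu_circ_0001158 had 3 counts in control, all in replicate 2, and 13 in UUO, 11 of them in replicate 3, and mmu_circ_0010368 had 4 counts in UUO replicate 2 and 0 elsewhere.

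Summed over its 4 circRNAs, Vav3 had 17, 37 and 24 counts in control, 67 and 40 in AC, and 69, 59 and 79 in UUO. The lowest injured library, AC replicate 2, was above the highest control library. The sum averaged 1435 ± 192 CPM in UUO (SD, n = 3) against 513 ± 129 CPM in control (SD, n = 3) and was 2.76-fold higher (log2 fold change 1.47, SE 0.32, edgeR adjusted p = 0.00766). That call held with any 1 library left out and was lost with the deposited constants as scaling (edgeR adjusted p = 0.0655). In AC it averaged 1252 ± 289.7 CPM (SD, n = 2) and was 2.42-fold higher (log2 fold change 1.28, SE 0.35, edgeR adjusted p = 0.0471). The AC call held in 1 of 8 settings with a library left out, that without control replicate 2, and its edgeR adjusted p lay between 0.0556 and 0.317 in the other 7, each of which ended it. It was also lost with the deposited constants (0.245), in limma-voom (0.0514) and with UUO left out of the fit (0.105).

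**Figure D2:**
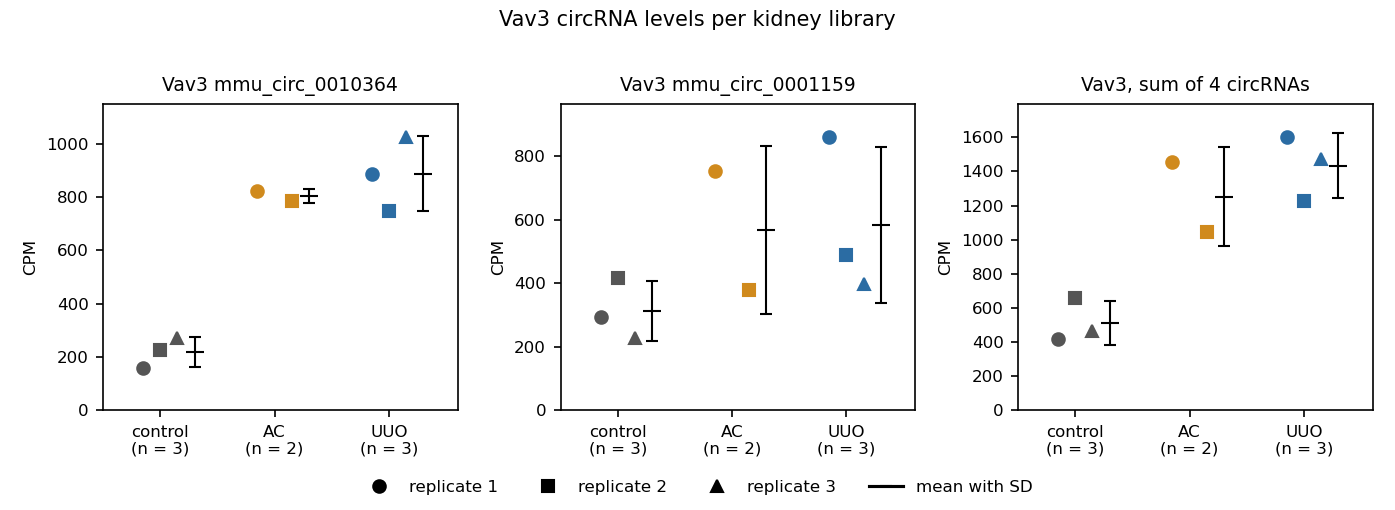
Levels in CPM (y axis) of the 2 tested Vav3 circRNAs and of the sum over all 4 Vav3 circRNAs in each library, by group, with circles, squares and triangles for replicates 1, 2 and 3 and black marks for the mean with SD. The sum is scaled to the counts of tested hosts, so CPM of the panels do not add up. For mmu_circ_0010364 the AC and UUO points lie at 747 or above and the control points at 269 or below, while for mmu_circ_0001159 the groups overlap.

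No circRNA of the Arhgef and Dock genes passed. The Arhgef40 circRNA mmu_circ_0005268 had 3, 2 and 6 counts in control, 11 and 6 in AC, and 8, 17 and 19 in UUO. All 5 injured libraries were above the controls in CPM, at 175 or more against 124 or less. No control library reached the filter's minimum, so this circRNA was tested through injured libraries alone. Its log2 fold change, 2.02 with an SE of 0.76 in UUO (edgeR adjusted p = 0.167) and 1.42 with an SE of 0.84 in AC (0.512), rested on 2 to 19 counts per library. Arhgef10l gave mmu_circ_0011367 at 289.5 ± 42.8 CPM in control (SD, n = 3), 375 ± 35.7 CPM in AC (SD, n = 2) and 525 ± 96.1 CPM in UUO (SD, n = 3), also without overlap with control (edgeR adjusted p = 0.793 in AC and 0.359 in UUO).

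Dock4, an exchange factor for Rac, had mmu_circ_0000367 at 12, 16 and 14 counts in control, 3 and 9 in AC, and 6, 17 and 23 in UUO. Its values were below control in both AC libraries and on either side of control in UUO (log2 fold change -0.89, edgeR adjusted p = 0.667 in AC, and 0.19, 0.917 in UUO).

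Arhgap12, a GAP for Rac, had mmu_circ_0000840 with 77, 80 and 113 counts in control, 87 and 82 in AC, and 101, 126 and 161 in UUO. It was at 1964 ± 419 CPM in control (SD, n = 3), 2221 ± 242 CPM in AC (SD, n = 2) and 2962 ± 409 CPM in UUO (SD, n = 3). The 3 UUO libraries were above the controls (log2 fold change 0.60, SE 0.24, edgeR adjusted p = 0.190). Arhgap5 gave mmu_circ_0004049, whose control libraries ranged from 133 to 547 CPM and spanned all but 1 of the injured ones (log2 fold change -0.79 in UUO, edgeR adjusted p = 0.668).

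Of the 9 tested circRNAs of Rab GTPases and Rab-named proteins, none passed, with 4 positive in UUO (median -0.01) and 5 in AC (median 0.31). Rabgap1l, a TBC domain GAP for Rab GTPases, had 3 of them. The most abundant, mmu_circ_0008324, had 50, 63 and 64 counts in control, 63 and 26 in AC, and 41, 43 and 37 in UUO. It was lower than control in the 3 UUO libraries, at 940.5 ± 143 CPM (SD, n = 3) against 1281 ± 79.3 CPM (SD, n = 3), while the AC libraries lay at 758 and 1484 CPM (edgeR adjusted p = 0.522 in UUO and 0.870 in AC).

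The smaller Rabgap1l circRNA mmu_circ_0008330 had 10, 13 and 24 counts in control, 7 and 3 in AC, and 4, 7 and 8 in UUO. Its highest injured value, 168 CPM, was under the lowest control value, 245 CPM, and its log2 fold change was -1.20 with an SE of 0.69 in UUO and -1.38 with an SE of 0.81 in AC (edgeR adjusted p = 0.430 and 0.505). No injured library reached the filter's minimum for mmu_circ_0008330, so it was tested through control libraries alone. For mmu_circ_0008322 of the same gene the groups overlapped (log2 fold change -0.70 in UUO and -0.26 in AC). Rab11fip3, an effector that binds Rab11 on recycling endosomes, had at most 12 counts of mmu_circ_0006619 in any library, and its SE exceeded its log2 fold change in UUO (0.95, SE 1.49) and in AC (1.47, SE 1.61). Its control libraries were all below the filter's minimum.

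DENN domain proteins are exchange factors for Rab GTPases. Of 29 listed circRNAs from 7 such hosts, 3 were tested and none passed. Dennd4c, an exchange factor for Rab10, had mmu_circ_0011818 at 0, 7 and 7 counts in control, 12 and 10 in AC, and 8, 17 and 6 in UUO. Both AC libraries were above the controls, and 1 UUO library was not (log2 fold change 1.56, SE 0.99 in AC and 1.31, SE 0.91 in UUO, edgeR adjusted p = 0.558 and 0.522). Dennd5a, which binds Rab6 and activates Rab39, had mmu_circ_0013752 at 7, 2 and 3 counts in control, 4 and 10 in AC, and 6, 14 and 8 in UUO, with groups that overlapped (log2 fold change 1.20 in UUO and 1.02 in AC, edgeR adjusted p = 0.617 and 0.753). For the Dennd4c and Dennd5a circRNAs no control library reached the filter's minimum, so both were tested through injured libraries alone.

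In the TBC domain family, whose members mostly act as GAPs for Rab GTPases, the clearest case was Tbc1d14, a Rab11-binding protein known to restrain the formation of autophagosomes. Summed over its 6 circRNAs it had 205, 296 and 238 counts in control, 187 and 163 in AC, and 142, 154 and 166 in UUO. In CPM of the host table the sums were 5012, 5273 and 4600.3 in control, 4066 and 4266 in AC, and 3303, 3200.2 and 3094 in UUO. The 3 groups did not overlap, with control highest and UUO lowest.

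The Tbc1d14 sum averaged 3199 ± 105 CPM in UUO (SD, n = 3) against 4962 ± 339 CPM in control (SD, n = 3) and was 1.55-fold lower (log2 fold change -0.63, SE 0.18, edgeR adjusted p = 0.0359). In AC it averaged 4166 ± 142 CPM (SD, n = 2) and did not pass (log2 fold change -0.25, SE 0.20, edgeR adjusted p = 0.593). Of 8 settings without 1 library the UUO call held in 1, that without control replicate 2 (edgeR adjusted p = 0.0469). It was lost without control replicate 1 (0.0649) or 3 (0.0682), AC replicate 1 (0.0579) or 2 (0.0522), and UUO replicate 1 (0.105), 2 (0.131) or 3 (0.163), with log2 fold changes from -0.66 to -0.57 over all 8. It was also lost with the deposited constants as scaling (0.0655) and without the filter on low counts (0.0812).

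Single Tbc1d14 circRNAs did not pass. Their estimated fold changes differed in sign, but none passed the test, given below, for a change apart from the others of the gene. The mmu_circ_0001341 circRNA had 100, 171 and 148 counts in control, 65 and 55 in AC, and 62, 84 and 93 in UUO. Each injured library was below each control library, at 1962 CPM or less against 2659 CPM or more. Its log2 fold change was -0.70 with an SE of 0.22 in UUO (edgeR adjusted p = 0.0922) and -0.93 with an SE of 0.26 in AC (edgeR adjusted p = 0.0681). DESeq2 placed it past the threshold, with an adjusted p of 0.0244 in UUO and 0.00924 in AC.

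The mmu_circ_0012606 circRNA of Tbc1d14 had 79, 90 and 55 counts in control, 93 and 71 in AC, and 51, 48 and 38 in UUO. Both AC libraries, at 2191 and 2071 CPM, were above the 3 UUO libraries, at 798 to 1294 CPM, and the controls spanned 1137 to 2100 CPM. Against control its log2 fold change was -0.62 in UUO and 0.38 in AC (edgeR adjusted p = 0.326 and 0.676). The remaining tested ones, mmu_circ_0012605 and mmu_circ_0012603, overlapped with control in both injuries, with log2 fold changes of -0.46 and 0.67 in UUO and 0.46 and -0.01 in AC.

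**Figure D3:**
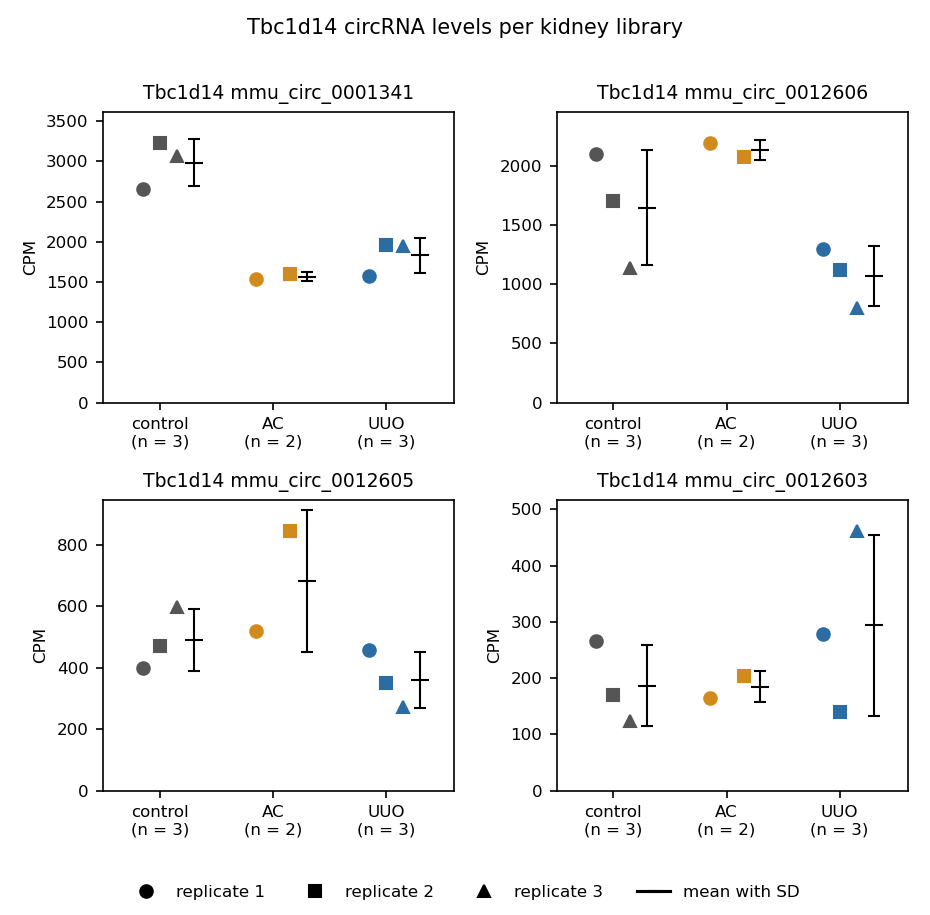
Levels in CPM (y axis, separate scale in each panel) of the 4 tested Tbc1d14 circRNAs in each library, by group, with symbols for the replicate number and black marks for the mean with SD. For mmu_circ_0001341 all AC and UUO points lie at 1962 or below and the controls at 2659 or above, whereas for mmu_circ_0012606 the AC points lie at 2071 and 2191, beside the upper control point at 2100.4.

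Tbc1d5, a Rab7 GAP that works with the retromer complex, had mmu_circ_0006819 at 28, 31 and 26 counts in control, 21 and 19 in AC, and 20, 10 and 7 in UUO. The UUO libraries were all below the controls, at 508 CPM or less against 538 CPM or more (log2 fold change -1.08, SE 0.46, edgeR adjusted p = 0.242) (in AC -0.24 and 0.883). Of 8 tested circRNAs of Tbc1d genes, 2 were positive in UUO, with a median of -0.54, and 2 in AC, with a median of -0.22. Of the 8, 4 came from Tbc1d14, so they share a host. Rabgap1l, also a TBC domain GAP, was counted with the Rab-named proteins above.

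Agap1, a GAP for Arf GTPases that binds the endosomal adaptor AP-3, gave all 4 tested circRNAs of the Arf GAPs. The mmu_circ_0009063 circRNA had 14, 9 and 13 counts in control, 36 and 14 in AC, and 26, 23 and 39 in UUO. Each injured library was above each control, at 408 CPM or more against 372 CPM or less, though AC replicate 2 was close to control replicate 1. Its log2 fold change was 1.33 with an SE of 0.44 in UUO (edgeR adjusted p = 0.112) and 1.25 with an SE of 0.49 in AC (edgeR adjusted p = 0.237). The most abundant of the 4, mmu_circ_0000061, had 17, 54 and 51 counts in control, 43 and 43 in AC, and 34, 47 and 41 in UUO, with a log2 fold change of 0.14 in UUO and 0.41 in AC. All 4 were positive in both injuries, while with the deposited constants as scaling 1 of 4 was positive in UUO and 4 of 4 in AC.

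Arfgef2, an exchange factor for Arf GTPases at the Golgi, had 2 tested circRNAs. The counts of mmu_circ_0009585 were 11, 0 and 35 in control, 0 and 20 in AC, and 9, 12 and 0 in UUO. It was at 0 in 1 library of each group and high in others, so its SE (1.21 in UUO and 1.33 in AC) exceeded its log2 fold change (-1.004 and -0.25). The mmu_circ_0009586 circRNA was at 359 ± 156 CPM in control (SD, n = 3), 266 ± 77.0 CPM in AC (SD, n = 2) and 379 ± 185 CPM in UUO (SD, n = 3), which overlapped.

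Rapgef2 and Rapgef6, related exchange factors for Rap GTPases, had 1 tested circRNA each. Rapgef2 mmu_circ_0001141 had 14, 10 and 15 counts in control, 3 and 6 in AC, and 14, 8 and 10 in UUO, so that both AC libraries were lowest (log2 fold change -1.24, SE 0.79, edgeR adjusted p = 0.560 in AC, and -0.21, 0.917 in UUO). Rapgef6 mmu_circ_0003133 had 2, 5 and 8 counts in control, 17 and 12 in AC, and 3, 5 and 13 in UUO, so that both AC libraries were highest in CPM (log2 fold change 1.80, SE 0.89, edgeR adjusted p = 0.366 in AC, and 0.56, 0.803 in UUO). Neither passed.

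Rasa2, a GAP for Ras, had the most counts of the 71 hosts. Its main circRNA mmu_circ_0001829 had 384, 762 and 641 counts in control, 450 and 383 in AC, and 537, 486 and 541 in UUO. It was at 12615 ± 2158 CPM in control (SD, n = 3), 10887 ± 404 CPM in AC (SD, n = 2) and 12112 ± 1312 CPM in UUO (SD, n = 3). The groups overlapped, and the log2 fold change was -0.06 with an SE of 0.15 in UUO and -0.21 with an SE of 0.17 in AC (edgeR adjusted p = 0.905 and 0.667).

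The other large Rasa2 circRNA, mmu_circ_0001830, described after its values were seen, had 294, 657 and 479 counts in control, 310 and 198 in AC, and 243, 322 and 338 in UUO. All 5 injured libraries were below the controls, at 7519 CPM or less against 7817 CPM or more. Its log2 fold change was -0.54 with an SE of 0.18 in UUO (edgeR adjusted p = 0.126) and -0.62 with an SE of 0.21 in AC (edgeR adjusted p = 0.157). DESeq2 placed it past the threshold in both (adjusted p = 0.0390 and 0.0457), and so did edgeR in UUO without control replicate 1 (adjusted p = 0.0470). A sparse Rasa2 circRNA, mmu_circ_0016014, had 7, 21 and 14 counts in control, 0 and 6 in AC, and 6, 6 and 10 in UUO (log2 fold change -1.78 in AC and -0.79 in UUO, edgeR adjusted p = 0.529 and 0.727). Given library depth, it passed the filter on low counts through control libraries alone.

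**Figure D4:**
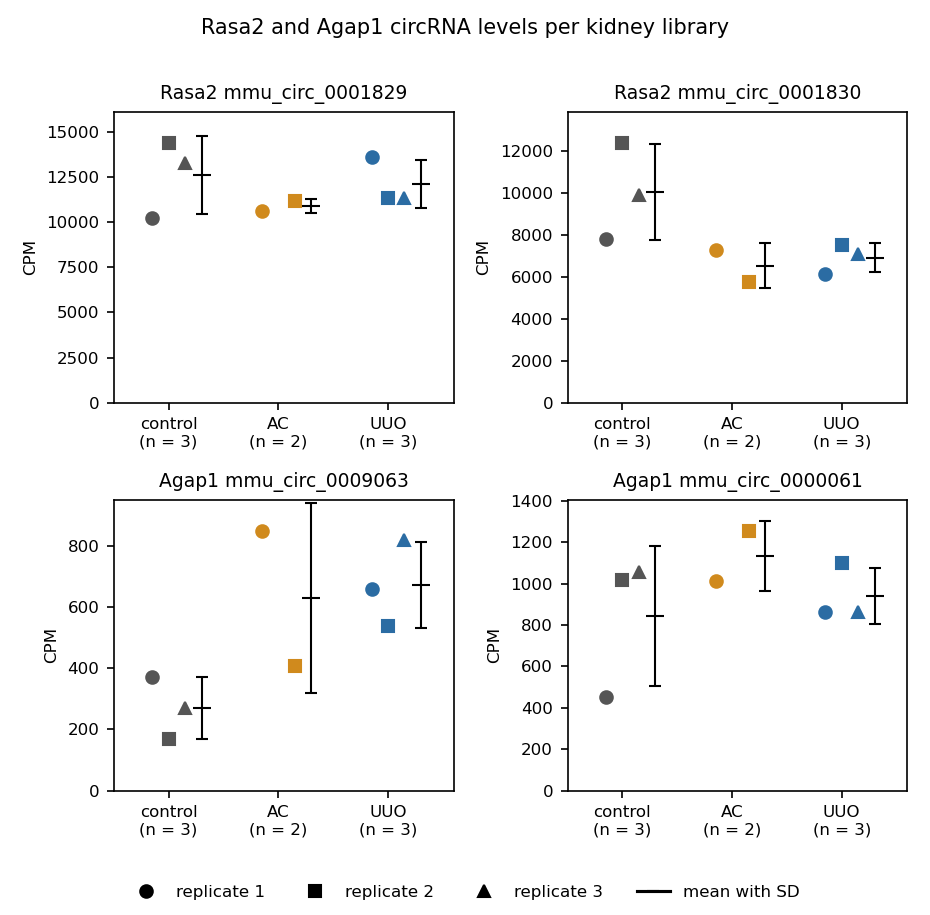
Levels in CPM (y axis, separate scale in each panel) of 2 Rasa2 and 2 Agap1 circRNAs in each library, by group, with symbols for the replicate number and black marks for the mean with SD. For Rasa2 mmu_circ_0001829 the groups overlap, for mmu_circ_0001830 all AC and UUO points lie at 7519 or below, and for Agap1 mmu_circ_0009063 they lie at 408 or above with the controls at 372 or below.

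Ralgapa1 and Ralgapa2 are catalytic subunits of the complexes that turn off Ral GTPases. Ralgapa1 mmu_circ_0004091 had 15, 14 and 9 counts in control, 6 and 5 in AC, and 8, 1 and 3 in UUO, the lowest log2 fold change of the 49 in UUO (-1.54, SE 0.91, edgeR adjusted p = 0.446). UUO replicate 1, at 203 CPM, was above control replicate 3, at 186 CPM, so the groups overlapped. This Ralgapa1 circRNA passed the filter on low counts through control libraries alone. Ralgapa2 mmu_circ_0001085 was at 685 ± 109 CPM in control (SD, n = 3), 398 ± 96.8 CPM in AC (SD, n = 2) and 622 ± 208 CPM in UUO (SD, n = 3), with both AC libraries below control (log2 fold change -0.78, SE 0.45, edgeR adjusted p = 0.489). Ralgapa2 mmu_circ_0009413 had 10, 5 and 4 counts in control and 2 and 1 in AC, a ratio of group sums, scaled to library size, of 3.5 with an exact binomial 95% interval from 1.03 to 18.5, which covers counting error only. It did not pass in AC (edgeR log2 fold change -1.83, SE 1.45, adjusted p = 0.652), and its UUO counts of 6, 12 and 5 overlapped with control (log2 fold change 0.29, adjusted p = 0.931).

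Of the 10 tested circRNAs of Ras, Rap and Ral GAPs, 4 were positive in UUO (median -0.10) and 3 in AC (median -0.44). None of the 10 passed in edgeR's test. Of the 10, 4 came from Rasa2, 3 from Ralgapa2 and 2 from Sipa1l1, so most share a host with others.

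Per host gene, 2 of 36 tested sums passed in UUO, Vav3 as higher and Tbc1d14 as lower, against 6.5% of all 1185 tested hosts (3.71% higher and 2.78% lower). In AC, 1 of 36 passed, Vav3, as higher, against 3.46% (2.03% higher and 1.43% lower). The median log2 fold change of the 36 was 0.08 in UUO and 0.14 in AC, against -0.02 and -0.01 over all hosts. Sums of 10 of 36 did not overlap with control in UUO, 4 higher and 6 lower, against 25.1% of all hosts (12.3% higher and 12.8% lower). In AC it was 10 of 36, 5 in each direction, against 31.6% (15.7% higher and 15.9% lower). At an unadjusted p under 0.05 edgeR gave 7 of 36 sums in UUO (19.5% of all hosts) and 3 of 36 in AC (15%).

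Some sums that missed the threshold are given here after their values were seen. Dock10, an exchange factor for Cdc42 and Rac, had 7, 16 and 12 counts in control, 7 and 15 in AC, and 10, 29 and 50 in UUO, so that UUO replicates 2 and 3 were high and UUO replicate 1 lay within the controls (log2 fold change 1.35, SE 0.54, edgeR adjusted p = 0.154). Tbc1d5 had 36, 61 and 52 counts in control, 31 and 35 in AC, and 23, 31 and 19 in UUO, the UUO libraries all lowest in CPM (log2 fold change -0.96, SE 0.35, edgeR adjusted p = 0.109). Rabgap1l was at 2102 ± 398 CPM in control (SD, n = 3), 1624 ± 594 CPM in AC (SD, n = 2) and 1417 ± 132 CPM in UUO (SD, n = 3), with an edgeR adjusted p of 0.246 in UUO and 0.615 in AC. Rasa2 passed in edgeR without control replicate 1 in both injuries and not with all libraries (log2 fold change -0.30 in UUO and -0.41 in AC, edgeR adjusted p = 0.200 and 0.161).

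**Figure D5:**
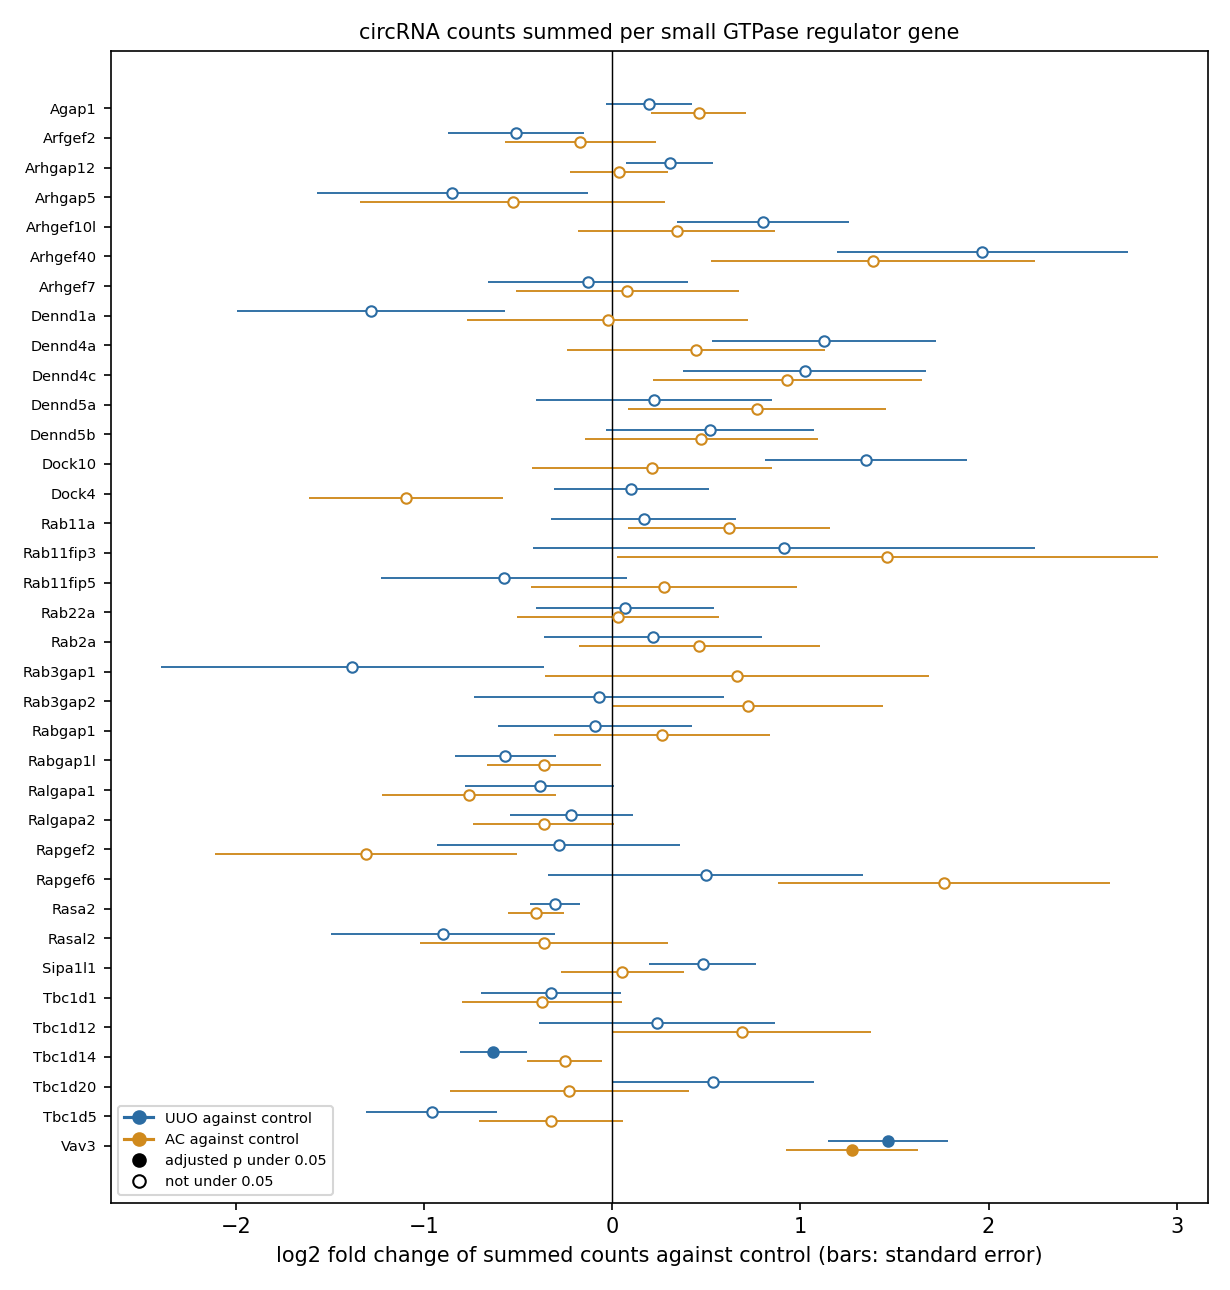
Log2 fold change against control (x axis, log2 units) of circRNA counts summed per host gene, for the 36 tested hosts in order of gene symbol, with UUO in blue, AC in orange, bars for the standard error and filled points for an adjusted p under 0.05. The filled points are Vav3 in UUO (1.47) and AC (1.28) and Tbc1d14 in UUO (-0.63).

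Whether a circRNA changed apart from the others of its gene was tested for 32 members of the 12 hosts with 2 or more tested circRNAs. None of the 32 passed in any of the 3 comparisons (edgeR's diffSpliceDGE, adjusted over 705 circRNAs). The share over all was 0% in UUO against control, 0.142% in AC against control and 0.142% in UUO against AC. In simulated data for UUO against control, this test recovered 37.4% of circRNAs changed 8-fold, so changes in usage could be missed. At an unadjusted p under 0.05 there were 2 of 32 in UUO (1.84% of all), 1 in AC (2.7%) and 1 in UUO against AC (2.27%). For Vav3, mmu_circ_0010364 made up 40.6 ± 11.8% of the Vav3 counts in control (SD, n = 3), 59.9 ± 10.8% in AC (SD, n = 2) and 55.7 ± 5.78% in UUO (SD, n = 3), and its usage did not pass (diffSpliceDGE adjusted p = 0.999 in UUO and 0.996 in AC).

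For Tbc1d14, mmu_circ_0001341 made up 56.2 ± 6.83% of the counts of the gene in control (SD, n = 3), 34.3 ± 0.719% in AC (SD, n = 2) and 51.4 ± 6.75% in UUO (SD, n = 3). The AC libraries, at 34.8% and 33.7%, were below the 6 others, of which the lowest was 43.7%. The diffSpliceDGE usage value in AC against control was -0.71 on the log2 scale, with an unadjusted p of 0.0451 and an adjusted p of 0.996. In UUO the members under the unadjusted threshold were Agap1 mmu_circ_0009063, with a usage value of 1.03, and Arhgap12 mmu_circ_0007414, with -0.98 (diffSpliceDGE adjusted p = 0.999 for both).

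In the direct comparison of UUO with AC, none of the 49 circRNAs and none of the 36 host sums passed edgeR's threshold, and the share over all was 0% for both. DESeq2 called 2 circRNAs and 1 host over the whole table and no member, and limma-voom called none. At an unadjusted p under 0.05 edgeR found 1 of 49 circRNAs, Tbc1d14 mmu_circ_0012606, against 5.57% of all. It was lower in UUO, at 1071 ± 252 CPM (SD, n = 3) against 2131 ± 84.8 CPM in AC (SD, n = 2), a log2 fold change of -0.997 (SE 0.32, edgeR unadjusted p = 0.00677, adjusted p = 0.816). Among host sums it was 1 of 36, Dock4, against 5.99% of all hosts, with 13 and 13 counts in AC and 17, 46 and 42 in UUO (log2 fold change 1.20, SE 0.51, edgeR adjusted p = 0.797).

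Values did not overlap between UUO and AC for 14 of 49 circRNAs, 7 in each direction, against 24.3% of all (13.2% higher and 11.1% lower). Among hosts it was 9 of 36, 4 higher and 5 lower, against 25.3% (12.5% higher and 12.8% lower). For Vav3 mmu_circ_0010364 the log2 difference of UUO and AC was 0.14 with an SE of 0.38. The groups overlapped for this circRNA.

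Beyond the symbols that define the group, 141 other genes of small GTPase signalling were looked up: GTPases, further exchange factors and GAPs, and effectors. Of these, 57 had a listed circRNA, with 144 circRNAs in all, of which 24 were tested. In UUO 2 of the 24 were higher past the threshold and none lower, and in AC 1 was higher and none lower. Over all tested circRNAs 2.86% were higher and 1.5% lower in UUO, and 1.9% and 1.43% in AC. Their median log2 fold change was -0.09 in UUO and 0.07 in AC.

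Rras2, a Ras-related GTPase, had mmu_circ_0001614 at 161, 207 and 188 counts in control, 239 and 282 in AC, and 238, 305 and 311 in UUO. All injured libraries were above the controls in CPM. It was 1.63-fold higher in UUO (log2 fold change 0.71, SE 0.18, edgeR adjusted p = 0.0397) and 1.72-fold higher in AC (0.78, SE 0.20, 0.0423). The UUO call held without AC replicate 2 (edgeR adjusted p = 0.0415) and was lost without any of the 7 other libraries (0.0517 to 0.155). The AC call was lost without any 1 of the 8 (0.0557 to 0.517). With the deposited constants the log2 fold change was 0.43 in UUO and 0.44 in AC and neither passed (0.419 and 0.513), nor did they without the filter on low counts (0.0503 and 0.0781), nor in AC with UUO left out of the fit (0.149). Dlc1 had mmu_circ_0001669 at 15, 0 and 7 counts in control, 12 and 9 in AC, and 26, 46 and 55 in UUO, with the UUO libraries highest. It was 5.63-fold higher in UUO (log2 fold change 2.49, SE 0.67, edgeR adjusted p = 0.0433), and in AC its edgeR adjusted p was 0.773. The UUO call held without control replicate 1 or either AC library. It was lost without control replicate 2 or 3 (0.0540 and 0.172) or UUO replicate 1, 2 or 3 (0.0845, 0.158 and 0.209), in DESeq2 (0.161) and with the deposited constants (0.0578), with log2 fold changes from 1.85 to 3.73 over the 8 refits.

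Per host, 3 of 24 of these other genes were higher in UUO (Rras2, Dlc1 and Myo9a) and 2 in AC (Rras2 and Myo9a), with none lower. The Rras2 and Dlc1 sums held the same counts as their circRNAs above. Their host calls are therefore not a second result, and only Myo9a adds one. Over all tested hosts 3.71% were higher and 2.78% lower in UUO, and 2.03% and 1.43% in AC. The Dlc1 host call (edgeR adjusted p = 0.0240) was lost without control replicate 3 (0.123) or UUO replicate 1 (0.0534), 2 (0.102) or 3 (0.117). The Rras2 host calls (0.0294 in UUO and 0.0336 in AC) were lost with the deposited constants (0.355 and 0.490). In UUO that of Rras2 was also lost without control replicate 3 (0.0812) or UUO replicate 2 or 3 (0.123 and 0.0792). In AC it was also lost without control replicate 3 (0.0982), AC replicate 2 (0.469, log2 fold change 0.45) or UUO replicate 2 (0.0632), and with UUO left out of the fit (0.105). Dlc1 and Myo9a, a myosin motor, were both looked up among the further exchange factors and GAPs. Summed over its circRNAs, Myo9a had 21, 10 and 24 counts in control, 59 and 48 in AC, and 70, 52 and 58 in UUO. Every injured library was above every control, at 1081 CPM or more against 513 CPM or less. The sum was 3.31-fold higher in UUO (log2 fold change 1.73, SE 0.38, edgeR adjusted p = 0.00766) and 3.34-fold higher in AC (1.74, SE 0.41, edgeR adjusted p = 0.0174). The UUO call was lost without UUO replicate 1 (0.0507), and the AC call without AC replicate 1 (0.0923) or AC replicate 2 (0.0749) and with UUO left out of the fit (0.0568).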

How the data were processed

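The deposited matrix gives raw counts, 1 row per circRNA and 1 column per library. Per the submitters' processing notes the authors' tools were HISAT2 and StringTie with the mouse build mm9, and versions are not given there. The sources used here do not name the caller of back-spliced reads or the use of strand, so reads of overlapping circRNAs of 1 host may not be fully separable. A second deposited table, of signal, equals each count divided by 1 constant per library, and it served as an alternative scaling. Per the labels, groups held 3 control, 2 AC and 3 UUO libraries.

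Counts of circRNAs, and sums per host gene, were fitted in edgeR 4.0.16 (R 4.3.3) with 1 model of all 8 libraries. The steps were filterByExpr (minimum count 10, minimum total 15), TMM scaling, the quasi-likelihood test and Benjamini-Hochberg adjustment over the whole table at a threshold of 0.05. The SE is the log2 fold change divided by the root of F. CPM divide by the counts left after the filter times the TMM factor, separately for circRNAs and for hosts. A circRNA's usage within its host was tested with diffSpliceDGE. Groups were said not to overlap where the CPM ranges were apart. The scripts were tested on simulated data. Alternatives were RLE size factors, the constants, DESeq2 1.42.0, limma-voom 3.58.1, no filter, the 2 compared groups alone, a replicate block and leaving out each library.

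Named were members past a threshold, the 8 largest and 8 smallest log2 fold changes against control, and the most abundant tested circRNA of each role. Of the other genes, those past the threshold were named. The members and lists were chosen with earlier results of these data known. Results for some groups of members are not reported here.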

Additional observations from a re-analysis of the deposited data

How the results depend on the processing

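Limits came first from depth: 160 of 209 members were too sparse to test, and 3 counts were worth 56.6 to 87.5 CPM. In simulated data edgeR's test recovered 18.9% of 2-fold and 63.2% of 4-fold circRNA changes in UUO against control. In AC against control it recovered 10.9% and 56.5%. For host sums it recovered 28% and 77.4% in UUO and 20.8% and 63.6% in AC. Members that did not pass could therefore have changed. Leaving out an AC library leaves 1 sample in that arm, assumed to vary like the others. In UUO the 1 called circRNA became 3 in DESeq2 (Vav3, Tbc1d14 mmu_circ_0001341 and Rasa2 mmu_circ_0001830) and 0 to 2 with a library left out, and the 2 called hosts became 0 with the deposited constants, 1 without the filter and 1 to 2 with a library left out. In AC the 1 called circRNA became 3 in DESeq2, where 21 of the 49 adjusted p-values were not given, 0 with the constants, 0 with the compared groups alone and 0 to 1 with a library left out. The 1 called host of AC became 0 with the constants, limma-voom or the compared groups alone, and 0 to 1 with a library left out. In UUO against AC, and in the usage tests, the count of members was 0 in every setting run. No called value reversed: of 827 alternatives for 57 named values, 741 stayed on their side of the threshold, among them 11 that were not called and had the opposite sign, while 81 lost the call and 5 gained one. An alternative with no adjusted p was counted as not called. Alternatives in which a named circRNA did not pass the filter gave no value and are not among the 827. Over the whole table the calls ranged from 10 to 103 circRNAs in UUO and from 5 to 70 in AC, against 64 and 49.

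Same-numbered libraries of different groups did not deviate together (7 pairs, median r -0.0737, from -0.111 to 0.0651). With so few libraries per group the deviations are bound to each other (r = -1 between the 2 AC libraries). The check therefore cannot decide whether the numbers pair libraries. With a replicate block the called members were 1 circRNA and 1 host in UUO, and 0 circRNAs and 0 hosts in AC, while the whole table had 12 called circRNAs in UUO and 5 in AC. Under the block Vav3 mmu_circ_0010364 had an edgeR adjusted p of 0.0377 in UUO and 0.0784 in AC, and the Tbc1d14 sum 0.0895 in UUO. It also ended the calls of Rras2 mmu_circ_0001614 (0.0996 in UUO and 0.189 in AC), of the Rras2 sum (0.0778 and 0.155), of Dlc1 mmu_circ_0001669 and its sum in UUO (0.137 and 0.0746), and of the Vav3 and Myo9a sums in AC (0.155 and 0.0552).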

Other observations

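Many members appeared in few libraries. Of the 209, 50 had counts in all 8 libraries, and 37 had counts in 1 library alone. The 3 control libraries had 0 counts for 30 members, the 2 AC libraries for 64 and the 3 UUO libraries for 38, and the groups differ in size and depth. The highest total among the 30 was 26 counts. Agap1 had the most listed circRNAs, 12, followed by Ralgapa1 and Rabgap1l with 11 each and Rabgap1 with 10, while 35 of the 71 hosts had 1.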
